A study of Mus musculus with 5 samples.

Results

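The neurotrophic genes described here are 9 genes that encode survival factors of retinal neurons or the receptors for such factors. The factors are Bdnf, Cntf and Igf1, and the receptors are Ntrk2, Ntrk3, Cntfr, Lifr, Il6st and Gfra1. They were chosen by gene symbol and not by any measured value, though with earlier results of these data known. They are 9 of the 25655 gene symbols counted. Each of the 9 genes passed the filter on low counts and was among the 14992 genes tested. RNA sequencing of the injured retina was performed to compare mice given Sorbinil, an inhibitor of aldose reductase, with mice given the vehicle DMSO after optic nerve crush (ONC). All mice were wildtype C57BL/6, 8 to 10 weeks old, with the left optic nerve crushed, and the whole injured retina was taken 7 days later. The DMSO group holds 3 retinas (replicates 1, 2 and 3), and the Sorbinil group, given 10 mg/kg daily into the peritoneum from the day before ONC, holds 2 retinas (replicates 1 and 3). Every retina compared here was injured, so the comparison shows the difference between treatments and not the response to ONC. Sorbinil replicate 2 was not used here, and the study left out a Sorbinil replicate after a principal component analysis. The study describes the groups by mice, as many as there are retinas here, so the p-values measure the spread between mice.

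Counts on genes totalled between 56096541 and 90288552 per retina. Sorbinil replicate 1 stood apart from the other 4 retinas. In that retina, 17.4% of all genes tested were at least 2-fold below the DMSO mean, compared to 0.914% in Sorbinil replicate 3, so each result below is given for both Sorbinil retinas. Judged by 4 Y-linked genes, DMSO replicates 1 and 2 and Sorbinil replicate 1 were male, and DMSO replicate 3 and Sorbinil replicate 3 were female. Between the Sorbinil retinas, sex and replicate cannot be told apart. The retina was recognisable by its rod genes, whose levels summed to between 75700 and 146000 CPM (counts per 1e6, scaled to the TMM-normalized size of each library).

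As background, BDNF binds the receptor TrkB (encoded by Ntrk2) and neurotrophin-3 binds TrkC (Ntrk3), and both receptors are tyrosine kinases of neurons, with truncated forms of TrkB also made by glia. CNTF binds CNTFR, which joins LIFR and the shared subunit gp130 (Il6st) to activate JAK kinases and STAT3. GDNF binds GFRA1 and signals through the kinase RET, while IGF-1 acts on its own receptor kinase and is held by IGF binding proteins. In the injured retina these factors are known for delaying the death of retinal ganglion cells (RGCs) and, for CNTF and IGF-1, for promoting axon growth, and Müller glia and astrocytes are known sources of CNTF.

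For none of the 9 neurotrophic genes did the difference between the groups pass the test against the spread between retinas. The study called a gene where its p-value, unadjusted, was 0.1 or less and its level differed 2-fold or more, and by edgeR's quasi-likelihood test 0 of the 9 genes were called on this rule, compared to 1.71% of all genes tested (1.35% lower and 0.36% higher with Sorbinil). The number with an unadjusted p-value under 0.05 was also 0, compared to 5.01% of all genes tested. The DESeq2 Wald test called 0 of the 9 as well, with 1 gene (Lifr) at an unadjusted p-value under 0.05. The smallest adjusted p-value (Benjamini-Hochberg) over the 14992 genes was 0.758 in edgeR. The estimate was below 0 for 6 of the 9 genes and above 0 for 3, with a median log2 fold change of -0.33, compared to -0.01 over all genes tested. Lifr was the 1 gene of the 9 whose groups did not overlap, and 23.2% of all genes tested had groups that did not overlap.

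**Figure D1:**
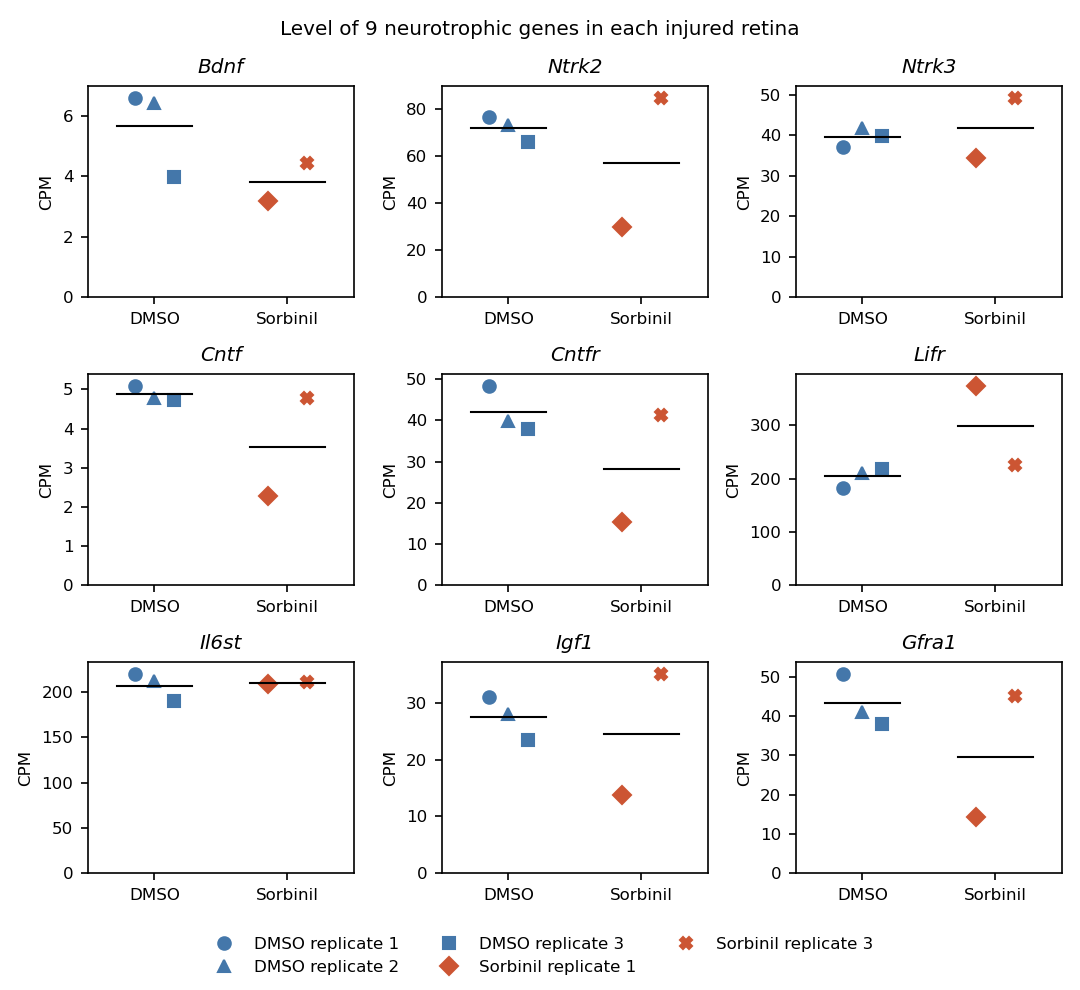
Level in CPM (vertical axes, from 0) of each of the 9 genes in 3 DMSO and 2 Sorbinil retinas, 1 point per retina with the group mean as a line. Sorbinil replicate 1 (diamond) is the lowest point for Bdnf, Ntrk2, Ntrk3, Cntf, Cntfr, Igf1 and Gfra1 and the highest for Lifr, where it reaches 374 CPM.

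The 2 Sorbinil retinas lay apart from each other. In Sorbinil replicate 1, 85.1% of all genes tested lay outside the DMSO range. Of the 9 genes, 7 were below every DMSO retina there, 1 (Lifr) was above and 1 (Il6st) was within the DMSO range. Of these 7, Gfra1, Cntfr, Ntrk2 and Cntf were at least 2-fold below the DMSO mean, that is 4 of the 9 genes against the 17.4% of all genes tested. Igf1 (log2 difference -0.98), Bdnf (-0.79) and Ntrk3 (-0.20) were lower by less than 2-fold. In Sorbinil replicate 3, 0 of the 9 were at least 2-fold lower and 0 were below every DMSO retina. There 5 were within the DMSO range, and Ntrk2, Ntrk3, Lifr and Igf1 were above it. Of all genes tested, 56.4% lay outside the DMSO range in Sorbinil replicate 3. Over the 9 genes, the median log2 difference from the DMSO mean came to -0.98 for Sorbinil replicate 1 and 0.07 for Sorbinil replicate 3, while the DMSO retinas ran from -0.13 to 0.09. This is bulk tissue, in which fewer cells of a type and less RNA per cell cannot be told apart.

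**Figure D2:**
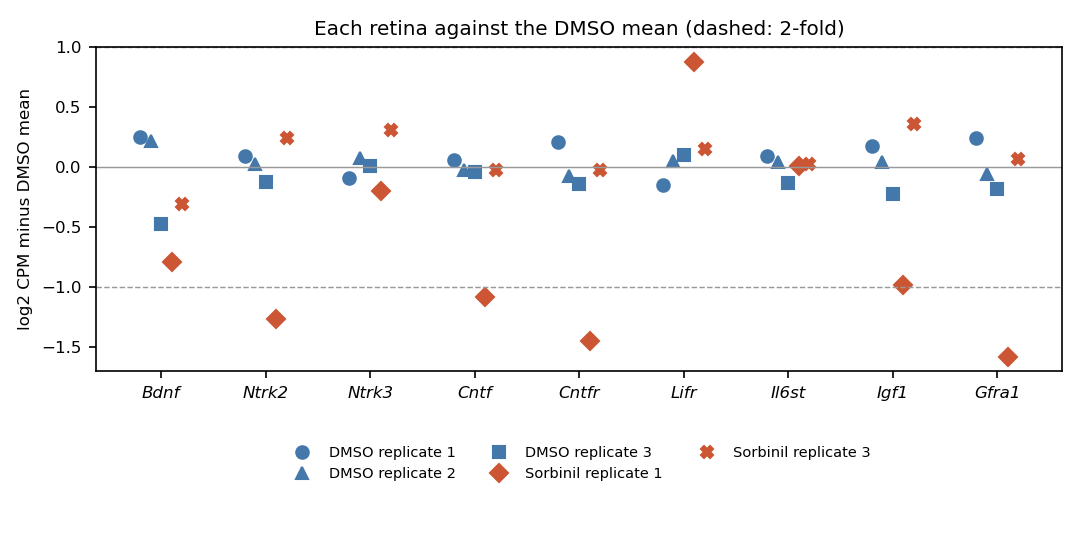
Each retina's log2 CPM minus the DMSO mean (vertical axis) for the 9 genes, 1 symbol per retina, with dashed lines at 2-fold. The DMSO retinas and Sorbinil replicate 3 lie near 0, while Sorbinil replicate 1 runs from -1.58 for Gfra1 to 0.88 for Lifr.

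The promoters of Lifr, the 1 gene above the DMSO range in Sorbinil replicate 1, and of Gfra1, Cntfr and Ntrk2, the genes farthest below the DMSO mean in that retina, are printed here because these genes lay on opposite sides of it, and the Bdnf promoter is added for its match to part of a cAMP response element. Each run is the 150 bases before the most upstream RefSeq start (for Bdnf, before the start whose window holds the match), 5′ to 3′, on build GRCm38.p6, which is older than the GRCm39 of the counts. Capitals mark GGGCGG, an Sp factor box, in Lifr and TGACG in Bdnf (here on the other strand, as CGTCA), and the other runs hold no GGGCGG.
Lifr (chr15:7129422-7129571, plus strand): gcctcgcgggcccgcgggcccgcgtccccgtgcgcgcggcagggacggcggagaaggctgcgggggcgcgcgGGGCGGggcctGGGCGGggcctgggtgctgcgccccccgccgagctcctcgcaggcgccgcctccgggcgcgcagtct
Gfra1 (chr19:58455399-58455548, minus strand): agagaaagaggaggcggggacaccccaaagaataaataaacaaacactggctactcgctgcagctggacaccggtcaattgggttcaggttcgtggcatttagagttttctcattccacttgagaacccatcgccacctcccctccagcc
Ntrk2 (chr13:58806419-58806568, plus strand): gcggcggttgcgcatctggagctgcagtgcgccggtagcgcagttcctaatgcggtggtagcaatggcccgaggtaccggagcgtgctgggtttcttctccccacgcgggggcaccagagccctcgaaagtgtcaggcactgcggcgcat
Cntfr (chr4:41696038-41696187, minus strand): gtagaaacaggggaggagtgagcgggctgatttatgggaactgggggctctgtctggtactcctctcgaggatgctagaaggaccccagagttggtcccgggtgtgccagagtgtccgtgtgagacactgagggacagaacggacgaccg
Bdnf (chr2:109692286-109692435, plus strand): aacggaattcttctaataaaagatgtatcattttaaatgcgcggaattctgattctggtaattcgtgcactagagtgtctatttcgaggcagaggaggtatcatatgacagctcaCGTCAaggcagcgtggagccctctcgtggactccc
RefSeq windows of 250 bases before and 50 after the start were given for 8 of the 9 genes, 20 windows in all. On either strand, GGGCGG was found in 9 windows of 5 genes (Bdnf, Cntfr, Il6st, Lifr and Ntrk2), and in 35.7% of the 32851 windows of all genes. The STAT motif TTCNNNGAA was found in 1 Bdnf window (8.3% of all windows), the full cAMP response element TGACGTCA in 0 windows of the 9 genes (1.79%), and its shorter form TGACG, which the full element also holds, in 1 Bdnf window (20.8%). A match describes these letters and is not evidence of a bound factor.

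Among the neurotrophin genes, the ligand was lower in both Sorbinil retinas than in DMSO replicates 1 and 2, and neither the ligand nor either receptor passed the test. Bdnf (ENSMUSG00000048482, chromosome 2, 109505045 to 109557475, plus strand, GRCm39) encodes the ligand of TrkB. Its level was 6.58, 6.42 and 3.98 CPM in DMSO replicates 1, 2 and 3, and 3.18 and 4.43 CPM in Sorbinil replicates 1 and 3. The groups overlapped, because DMSO replicate 3 lay below Sorbinil replicate 3. The DMSO mean was 5.66 ± 1.46 CPM (SD, n = 3), and the Sorbinil mean was 3.81 ± 0.889 CPM (SD, n = 2). Bdnf had a log2 fold change of -0.57 (SE 0.31, 95% interval -1.34 to 0.19, adjusted p = 0.758 by edgeR's quasi-likelihood test). The unadjusted p-value of Bdnf was 0.116 in edgeR, and it was 0.287, 0.279 and 0.0463 without DMSO replicates 1, 2 and 3. The log2 fold changes in these 3 fits were -0.45, -0.47 and -0.77. Leaving out Sorbinil replicate 1 gave -0.35, and leaving out Sorbinil replicate 3 gave -0.84. Within each sex, Sorbinil replicate 1 was at a log2 difference of -1.03 from the male DMSO retinas, and Sorbinil replicate 3 at 0.16 from the female one.

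Ntrk2 (ENSMUSG00000055254, chromosome 13, 58954176 to 59281784, plus strand) encodes TrkB, the receptor of BDNF. Its level was 76.5, 73.3 and 66.1 CPM in DMSO replicates 1, 2 and 3, and 29.7 and 84.7 CPM in Sorbinil replicates 1 and 3. Sorbinil replicate 1 was below and Sorbinil replicate 3 above every DMSO retina. For Ntrk2 the log2 fold change was -0.33 (SE 0.42, 95% interval -1.37 to 0.70, adjusted p = 0.797). The direction was that of Sorbinil replicate 1 only, since leaving it out gave 0.25 and leaving out Sorbinil replicate 3 gave -1.28. Ntrk3 (ENSMUSG00000059146, chromosome 7, 77825707 to 78387760, minus strand) encodes TrkC. Its level was 37.2, 41.8 and 39.8 CPM with DMSO, and 34.5 and 49.2 CPM in Sorbinil replicates 1 and 3. These Sorbinil values lay on either side of a narrow DMSO range. The log2 fold change of Ntrk3 was 0.08 (SE 0.18, 95% interval -0.36 to 0.52, adjusted p = 0.882). It was 0.32 when Sorbinil replicate 1 was left out and -0.20 when Sorbinil replicate 3 was. Counts per gene cannot separate the full-length receptors from the truncated forms made by both genes.

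The other neurotrophin genes came from a list of 25 counted genes of ligands, receptors, processing enzymes and adaptors. Of 23 tested, 1 was called, lower with Sorbinil, against 1.35% of all genes tested called lower. The median log2 fold change of the list was -0.24. Over the list, the median log2 difference from the DMSO mean came to -0.66 for Sorbinil replicate 1 and 0.11 for Sorbinil replicate 3. The number called was 0 without DMSO replicate 1, DMSO replicate 2 or Sorbinil replicate 1, and 10 without Sorbinil replicate 3. The share of all genes tested that was called was 19.0% without Sorbinil replicate 3. It was 1.1%, 1.38% and 1.99% without DMSO replicates 1, 2 and 3, and 1.43% without Sorbinil replicate 1.

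The neurotrophin receptor gene Ngfr was below the DMSO range in Sorbinil replicate 1 and within it in Sorbinil replicate 3. Ngfr, the p75 receptor that binds all neurotrophins, was at 66.5, 51.2 and 46.2 CPM with DMSO and 24.9 and 53.8 CPM with Sorbinil (log2 fold change -0.47, adjusted p = 0.758). Ntf3, which encodes neurotrophin-3, the ligand of TrkC, had between 2 and 19 counts per retina and was not tested. Maged1, which encodes an intracellular partner of p75, was at 386, 355 and 358 CPM with DMSO and 232 and 330 CPM with Sorbinil (log2 fold change -0.38, unadjusted p = 0.0873 in edgeR). Creb1, which encodes a transcription factor activated by TrkB signaling, was the 1 gene of the list with an unadjusted p-value under 0.05 (0.0428 by edgeR, adjusted p = 0.758). Its level was 121, 136 and 136 CPM with DMSO and 235 and 148 CPM in Sorbinil replicates 1 and 3, and its log2 fold change of 0.55 came to 0.19 when Sorbinil replicate 1 was left out.

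The genes of CNTF and its receptor complex lay on different sides of the DMSO mean in Sorbinil replicate 1, and none of them passed the test. The ligand and its binding receptor were low in that retina, Lifr was high, and Il6st stayed within 190 to 220 CPM in the 5 retinas. In Sorbinil replicate 3 the log2 differences from the DMSO mean were -0.02 for Cntf, -0.02 for Cntfr, 0.15 for Lifr and 0.03 for Il6st. Cntf (ENSMUSG00000079415, chromosome 19, 12737353 to 12742996, minus strand) encodes the ligand. Its level was 5.09, 4.79 and 4.73 CPM with DMSO, and 2.28 and 4.79 CPM in Sorbinil replicates 1 and 3. Sorbinil replicate 3 was within the DMSO range, and Sorbinil replicate 1 was under it. Cntf had a log2 fold change of -0.46 (SE 0.34, 95% interval -1.30 to 0.38, adjusted p = 0.758), and without Sorbinil replicate 1 it was -0.01. Cntf shares 847 exon bases with Gm44505 on the same strand, a gene with between 2 and 12 counts per retina, so reads from the shared bases are uncertain.

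Cntfr (ENSMUSG00000028444, chromosome 4, 41657498 to 41697089, minus strand) encodes the subunit that binds CNTF. Its level was 48.4, 39.8 and 37.9 CPM with DMSO, and 15.3 and 41.3 CPM in Sorbinil replicates 1 and 3. The pattern was that of Cntf, with 1 low Sorbinil retina and 1 within the DMSO range. Cntfr had a log2 fold change of -0.57 (SE 0.41, 95% interval -1.59 to 0.45, adjusted p = 0.758). Leaving out Sorbinil replicate 1 gave -0.01, and leaving out Sorbinil replicate 3 gave -1.46. Il6st (ENSMUSG00000021756, chromosome 13, 112600604 to 112646620, plus strand) encodes gp130, the signaling subunit shared with the receptors of IL-6, LIF and oncostatin M. Its level was 220, 212 and 190 CPM with DMSO, and 209 and 211 CPM with Sorbinil. Il6st had the narrowest interval of the 9 genes, with a log2 fold change of 0.02 (SE 0.13, 95% interval -0.29 to 0.33, adjusted p = 0.964).

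Lifr (ENSMUSG00000054263, chromosome 15, 7120095 to 7226970, plus strand) encodes the second signaling subunit, which also serves LIF. Its level was 183, 210 and 218 CPM in DMSO replicates 1, 2 and 3, and 374 and 225 CPM in Sorbinil replicates 1 and 3. Both Sorbinil retinas were above the 3 DMSO retinas, Sorbinil replicate 3 by little. The log2 fold change of Lifr was 0.55 (SE 0.24, 95% interval -0.03 to 1.14), with an unadjusted p = 0.0588 and an adjusted p = 0.758 by edgeR's quasi-likelihood test. The exact permutation test over the 10 groupings of the retinas gave p = 0.1, two-sided, the smallest it can give. Leaving out Sorbinil replicate 1 gave a log2 fold change of 0.15, and leaving out Sorbinil replicate 3 gave 0.88. Within the sexes, Sorbinil replicate 1 was at a log2 difference of 0.93 from the male DMSO retinas, and Sorbinil replicate 3 at 0.04 from the female one. The genes most like Lifr over the 5 retinas, among 14991 compared, were Btaf1, Cnot6l and Tnpo1, whose log2 levels differed from those of Lifr by a root mean square of 0.014, 0.021 and 0.025 after centring, where Lifr itself ranged over 1.03.

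**Figure D3:**
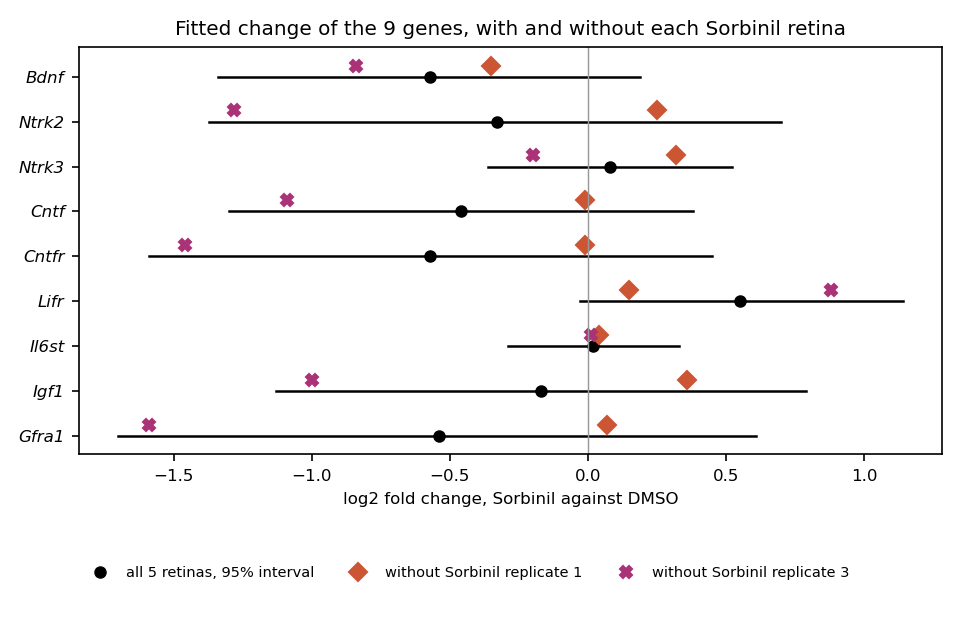
Fitted log2 fold change of Sorbinil against DMSO (horizontal axis) for the 9 genes, with all 5 retinas (black, line for the 95% interval), without Sorbinil replicate 1 (diamond) and without Sorbinil replicate 3 (cross). All 9 intervals include 0, and for Ntrk2, Igf1 and Gfra1 the diamond lies above 0 and the cross at or below -1.

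The wider gp130 cytokine list, with 23 counted genes of ligands, receptors, kinases and inhibitors, had 0 called genes among 19 tested and 0 with an unadjusted p-value under 0.05 in edgeR, a median log2 fold change of -0.06, and medians of -0.06 and -0.03 in Sorbinil replicates 1 and 3. Without DMSO replicate 3, 1 gene of the list was called, against 1.99% of all genes tested. Lif, which encodes the ligand of LIFR, was at 1.10, 1.23 and 0.972 CPM with DMSO and 0.818 and 1.71 CPM with Sorbinil (log2 fold change 0.21, adjusted p = 0.858). Among the receptors, Osmr was at 25.5, 22.1 and 19.0 CPM with DMSO and 12.8 and 22.6 CPM with Sorbinil (log2 fold change -0.33, adjusted p = 0.758). Il6ra was at 1.86, 2.39 and 1.21 CPM with DMSO and 0.514 and 1.36 CPM with Sorbinil (log2 fold change -0.95, adjusted p = 0.758). Ptpn6, which encodes the phosphatase SHP-1, was at 1.38, 1.70 and 1.08 CPM with DMSO and 0.495 and 1.22 CPM with Sorbinil (log2 fold change -0.68, adjusted p = 0.758).

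Downstream of gp130, neither Stat3 nor its target Socs3 passed the test. Stat3 was at 123, 108 and 108 CPM with DMSO and 115 and 106 CPM with Sorbinil (log2 fold change -0.03, SE 0.12, 95% interval -0.33 to 0.28, adjusted p = 0.946). Socs3, the feedback inhibitor that STAT3 induces, was at 5.14, 8.57 and 5.90 CPM with DMSO and 8.43 and 6.41 CPM with Sorbinil (log2 fold change 0.18, adjusted p = 0.828). Of 16 genes of the STAT3 and reactive Müller glia response, 1 was called lower, against 1.35% of all genes tested. The median log2 fold change of the list was -0.51, compared to -0.01 over all genes tested, with medians of -0.98 and -0.15 in Sorbinil replicates 1 and 3. The called gene was Serpina3n, which encodes a secreted protease inhibitor of reactive astrocytes, at 30.9, 54.3 and 20.4 CPM with DMSO and 10.2 and 17.9 CPM with Sorbinil. Both Sorbinil retinas were below the DMSO range, itself wide, and the log2 fold change was -1.32 (SE 0.48, unadjusted p = 0.0334 and adjusted p = 0.758 by edgeR). The call ended without DMSO replicate 2 (log2 fold change -0.87) or Sorbinil replicate 1 (-0.96). The number of called genes of the list was 3, 0 and 4 without DMSO replicates 1, 2 and 3. In these fits 1.1%, 1.38% and 1.99% of all genes tested were called. A2m, which encodes the protease inhibitor alpha-2-macroglobulin, was at 40.2, 59.1 and 45.9 CPM with DMSO and 15.6 and 33.1 CPM with Sorbinil (log2 fold change -0.99, unadjusted p = 0.0327 and adjusted p = 0.758 by edgeR), just short of the 2-fold limit. Fgf2, a survival factor that injured Müller glia make, was at 136, 146 and 145 CPM with DMSO and 234 and 137 CPM with Sorbinil (log2 fold change 0.38, adjusted p = 0.758).

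Igf1 set the Sorbinil retinas farthest apart from each other among the factors. Igf1 (ENSMUSG00000020053, chromosome 10, 87693642 to 87772904, plus strand) encodes insulin-like growth factor 1. Its level was 31, 28 and 23.5 CPM with DMSO, and 13.8 and 35.1 CPM in Sorbinil replicates 1 and 3. Sorbinil replicate 1 held the lowest value of the 5 retinas and Sorbinil replicate 3 the highest. For Igf1 the log2 fold change was -0.17 (SE 0.39, 95% interval -1.13 to 0.79, adjusted p = 0.884). With only Sorbinil replicate 3 in the group it was 0.36, and with only Sorbinil replicate 1 it was -1. By sex, the log2 difference of Igf1 was -1.09 for Sorbinil replicate 1 from the male DMSO retinas and 0.58 for Sorbinil replicate 3 from the female one.

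In the list of 20 other genes of the IGF axis, 2 of 17 tested were called, both lower and both IGF binding proteins. Over all genes tested, 1.35% were called lower. The median log2 fold change of the list was -0.37. Igfbp3, the main carrier of IGFs in plasma, was at 2.08, 2.91 and 1.64 CPM with DMSO and 0.285 and 1.19 CPM with Sorbinil, at 15 to 233 counts per retina (log2 fold change -1.56, SE 0.63, unadjusted p = 0.0504 and adjusted p = 0.758 by edgeR). Igfbp7, a secreted protein of endothelium and other vessel cells, was at 7.14, 8.12 and 5.72 CPM with DMSO and 1.75 and 4.91 CPM with Sorbinil (log2 fold change -1.07, SE 0.46, unadjusted p = 0.0604 and adjusted p = 0.758). In both, the Sorbinil retinas were below the 3 DMSO retinas. The endothelial marker list moved with them, with summed levels of 324 to 501 CPM in the DMSO retinas and of 168 and 421 CPM in Sorbinil replicates 1 and 3, and 9 of its 14 genes called lower. Its median log2 difference from the DMSO mean came to -2 for Sorbinil replicate 1 and -0.71 for Sorbinil replicate 3, below 0 in both, and in Sorbinil replicate 3 Kdr and Flt1 made up 277 and 109 CPM of the sum. The part of endothelial cells in these values was not tested. Neither call held without DMSO replicate 2 or without Sorbinil replicate 1, where the log2 fold changes were -1.32 and -0.88 for Igfbp3 and -0.95 and -0.50 for Igfbp7, and that of Igfbp7 also ended without DMSO replicate 1 (-1.05, unadjusted p = 0.12 in edgeR) and with library size scaling (-1.10, unadjusted p = 0.108). In both of these fits Igfbp6 was called in its place, at an unadjusted p of 0.0629 and 0.0436 in edgeR, so the count stayed at 2. Without Sorbinil replicate 3, 8 genes of the list were called, against 19.0% of all genes tested.

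The receptors of the IGF axis lay above the DMSO range in each Sorbinil retina. Igf1r, which encodes the receptor of IGF-1, was at 310, 313 and 332 CPM with DMSO and 477 and 392 CPM in Sorbinil replicates 1 and 3 (log2 fold change 0.45, SE 0.14, unadjusted p = 0.022 and adjusted p = 0.758 by edgeR's quasi-likelihood test). Igf2r, which encodes the clearance receptor of IGF-2, was at 49.9, 52.5 and 47.9 CPM with DMSO and 81.5 and 63.8 CPM with Sorbinil (log2 fold change 0.54, SE 0.14, unadjusted p = 0.0101 and adjusted p = 0.758). The insulin receptor gene Insr, named after its value was seen, was at 160, 167 and 169 CPM with DMSO and 234 and 195 CPM with Sorbinil (log2 fold change 0.38, unadjusted p = 0.0301 in edgeR). Igfbp6 had a log2 fold change of -0.93 (unadjusted p = 0.0288 in edgeR). The 3 receptor genes and Igfbp6 were the 4 genes of the list with an unadjusted p-value under 0.05 in edgeR. None of the 4 reached 2-fold, and 5.01% of all genes tested had such a p-value. Without Sorbinil replicate 1 the log2 fold changes of Igf1r and Igf2r were 0.31 and 0.36. With offsets for GC content and length, chosen after seeing the data, they had unadjusted p-values of 0.106 and 0.0286 in edgeR.

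**Figure D4:**
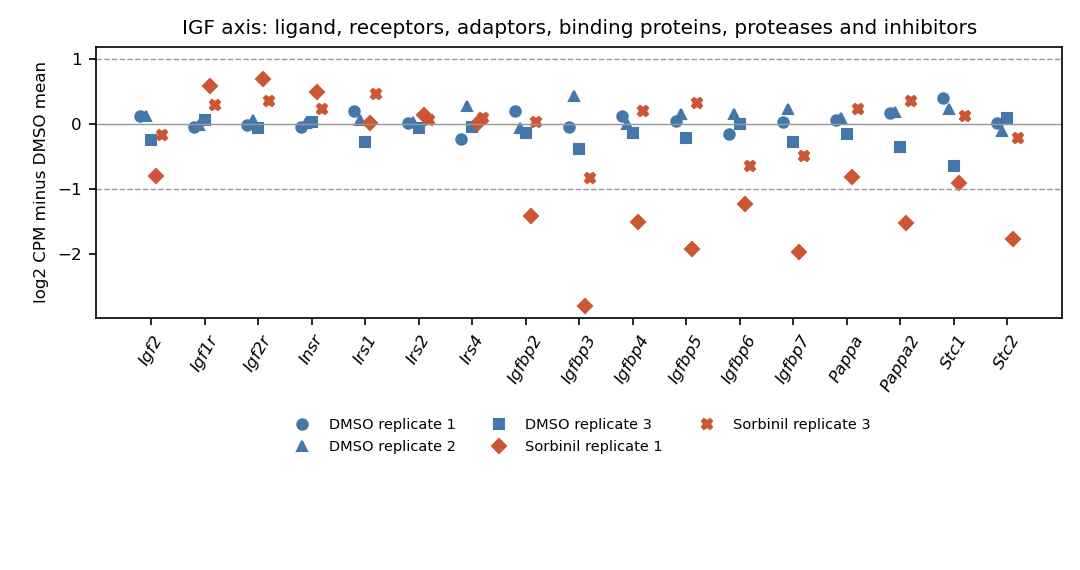
Each retina's log2 CPM minus the DMSO mean (vertical axis) for the 17 genes of the IGF axis tested, 1 symbol per retina, with dashed lines at 2-fold. Igf1r, Igf2r and Insr are above 0 in both Sorbinil retinas, while the 6 binding proteins are below -1 in Sorbinil replicate 1 and run from -0.83 to 0.32 in Sorbinil replicate 3.

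Igfbp6 was at 1.37, 1.68 and 1.51 CPM with DMSO and 0.628 and 0.958 CPM with Sorbinil, below the DMSO range in both Sorbinil retinas. Igfbp2, Igfbp4 and Igfbp5 were below that range in Sorbinil replicate 1 alone. Igfbp5, also on the astrocyte marker list, was at 64.9, 69.6 and 54.0 CPM with DMSO and 16.3 and 78.0 CPM with Sorbinil (log2 fold change -0.41, adjusted p = 0.818). Igfbp2 was at 23.0, 19.2 and 18.2 CPM with DMSO and 7.51 and 20.6 CPM with Sorbinil (log2 fold change -0.52, adjusted p = 0.758). The log2 fold changes of Igfbp5 and Igfbp2 were 0.32 and 0.04 without Sorbinil replicate 1.

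Gfra1 spanned the widest range of the 9 genes. Gfra1 (ENSMUSG00000025089, chromosome 19, 58223212 to 58444346, minus strand) encodes the receptor that binds GDNF and presents it to RET. Its level was 50.8, 41.1 and 38 CPM with DMSO, and 14.4 and 45.1 CPM in Sorbinil replicates 1 and 3. Sorbinil replicate 3 lay within the DMSO range, and Sorbinil replicate 1 was the lowest of the 5 retinas. Gfra1 had a log2 fold change of -0.54 (SE 0.47, 95% interval -1.70 to 0.61, adjusted p = 0.758). With only Sorbinil replicate 3 in the group it was 0.07, and with only Sorbinil replicate 1 it was -1.59. By sex, the log2 difference of Gfra1 was -1.67 for Sorbinil replicate 1 from the male DMSO retinas and 0.25 for Sorbinil replicate 3 from the female one. The genes most like Gfra1 over the 5 retinas were Slc24a3, Pde4a and Ildr2, at a root mean square difference of 0.018, 0.020 and 0.023 on the log2 scale, where Gfra1 itself ranged over 1.82.

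Of the 12 other genes of the GDNF family list, 10 were tested, with a median log2 fold change of -0.30. Of these, 0 were called and 0 had an unadjusted p-value under 0.05 in edgeR, against 1.71% and 5.01% of all genes tested. The number called was also 0 without DMSO replicate 1, 2 or 3, against 1.1%, 1.38% and 1.99% of all genes tested. Ret, which encodes the signaling receptor, was at 70.8, 62.8 and 52.4 CPM with DMSO and 20.2 and 60.2 CPM with Sorbinil (log2 fold change -0.62, adjusted p = 0.758). As for Gfra1, Sorbinil replicate 1 was the lowest retina and Sorbinil replicate 3 was within the DMSO range. Gdnf, the ligand, had between 5 and 18 counts per retina (log2 fold change 0.03, SE 0.58, 95% interval -1.41 to 1.48, adjusted p = 0.985). Gfra4, the receptor of persephin, was at 7.53, 6.42 and 5.58 CPM with DMSO and 2.83 and 6.69 CPM with Sorbinil (log2 fold change -0.45, adjusted p = 0.758). Gdf15, a distant ligand that signals through RET, was at 0.476, 0.425 and 0.540 CPM with DMSO and 0.457 and 0.192 CPM with Sorbinil (log2 fold change -0.58, adjusted p = 0.758).

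Beyond these families, 1 of 32 tested genes of other survival factors and their receptors was called, against 1.71% of all genes tested. The median log2 fold change of the list was -0.34. Egf, which encodes epidermal growth factor, was at 1.25, 1.2 and 1.55 CPM with DMSO and 3.94 and 1.43 CPM with Sorbinil (log2 fold change 1.01, SE 0.46, unadjusted p = 0.0723 and adjusted p = 0.758 by edgeR). The groups of Egf overlapped, since Sorbinil replicate 3 lay within the DMSO range. The call rested on Sorbinil replicate 1, without which the log2 fold change was 0.12, and it also ended without DMSO replicate 1 (0.96), DMSO replicate 2 (0.94) or DMSO replicate 3 (1.12, unadjusted p = 0.108 in edgeR). Pdgfa was at 3.64, 3.09 and 2.88 CPM with DMSO and 1.05 and 2.65 CPM with Sorbinil (log2 fold change -0.79, adjusted p = 0.758). Cdnf was at 3.04, 3.32 and 3.47 CPM with DMSO and 4.98 and 3.8 CPM with Sorbinil (log2 fold change 0.42, adjusted p = 0.758). Without Sorbinil replicate 3, 19 genes of the list were called, in a fit that called 19.0% of all genes tested.

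Per length of all exons, the receptor subunits Lifr and Il6st were the most abundant of the 9 transcripts and the factors Cntf and Bdnf the least. In CPM per kilobase of all annotated exons, the DMSO level was 14.8 ± 1.33 (SD, n = 3) for Lifr and 13.4 ± 1.03 (SD, n = 3) for Il6st. It was 6.80 ± 1.05 for Gfra1, 5.64 ± 0.752 for Cntfr, 2.69 ± 0.367 for Igf1 and 2.41 ± 0.178 for Ntrk2. The lowest DMSO levels were 1.26 ± 0.0736 for Ntrk3, 1.03 ± 0.0401 for Cntf and 0.745 ± 0.192 for Bdnf. Among neighbours in this order, the values over the 5 retinas separated only between Il6st (12.2 or more) and Gfra1 (7.98 or less), and between Ntrk3 (1.10 or more) and Cntf (1.07 or less). The order depended on the length used, since over the canonical transcript alone Cntfr came to a DMSO level of 21.1 ± 2.80 CPM per kilobase, between Il6st at 23.9 ± 1.84 and Lifr at 20.5 ± 1.84. Cntf and Bdnf were the least abundant on either length.

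The cell type markers moved with the neurotrophic genes in Sorbinil replicate 1. The list of 14 Müller glia genes summed to between 7610 and 9160 CPM in the DMSO retinas, and to 3160 and 8090 CPM in Sorbinil replicates 1 and 3. Its median log2 difference from the DMSO mean came to -1.43 for Sorbinil replicate 1 and 0.02 for Sorbinil replicate 3, with 10 of the 14 genes at least 2-fold lower in the former and 0 in the latter. The corresponding medians were -1.50 and 0.06 for 7 astrocyte genes, -1.12 and -0.19 for 15 RGC genes, -0.88 and -0.09 for 15 microglia genes, -1.18 and -0.05 for 12 bipolar cell genes, -1.40 and 0.09 for 14 amacrine cell genes, -0.76 and 0.39 for 6 horizontal cell genes, -1.57 and -0.25 for 10 genes of pericytes and smooth muscle and -2 and -0.71 for 14 endothelial genes, the lowest of these lists in both retinas. Rod genes went the other way, with a median of 0.52 in Sorbinil replicate 1 and -0.31 in Sorbinil replicate 3, and their summed level of 146000 CPM in Sorbinil replicate 1 was above the 88500 to 105000 CPM of the DMSO retinas. Genes with a low GC content were also higher in Sorbinil replicate 1, with a median log2 difference of 0.187 in the lowest quartile of GC content and -0.203 in the highest, compared to 0.068 and -0.068 in Sorbinil replicate 3. Of the 9 genes, Igf1, Bdnf, Cntf, Ntrk3 and Lifr lay in the lowest GC quartile (38% to 45.4% in the canonical transcript). Of these 5, 4 were below and 1 above every DMSO retina in Sorbinil replicate 1. In that retina, 85.1% of all genes tested lay outside the DMSO range. Cntfr, at 59.9%, lay in the highest GC quartile. With offsets for GC content and length, 0 of the 9 genes were called, as without them. The parts of GC content and cell makeup in the values of the 9 genes were not tested.

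**Figure D5:**
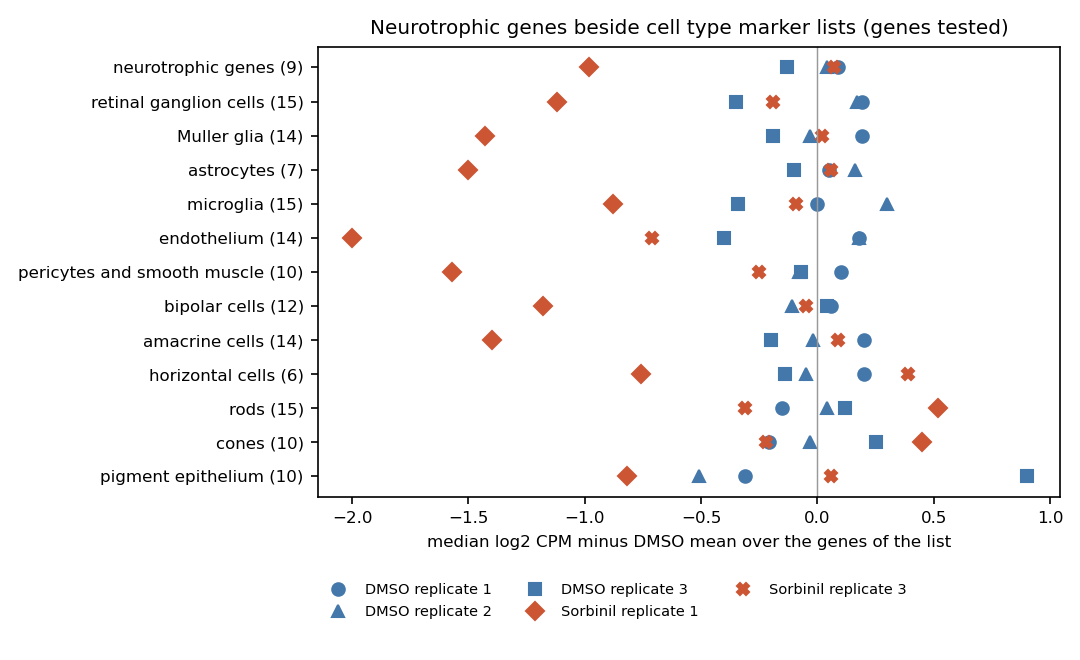
Median log2 CPM minus the DMSO mean (horizontal axis) over the neurotrophic genes and over each cell type marker list, 1 symbol per retina, with the number of genes tested in brackets. Sorbinil replicate 1 is at -0.98 for the neurotrophic genes and lower still for RGC, Müller glia, astrocyte, vascular, bipolar and amacrine cell markers, while it is above 0 for rods and cones.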

How the data were processed

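Total RNA of injured whole retina was sequenced, and the counts of 3 DMSO and 2 Sorbinil retinas were compared. The authors trimmed adaptors, aligned reads with CLC Genomics Workbench to GRCm39 at default settings, and deposited total counts per gene without normalization. The annotation, the use of strand and the handling of introns and shared reads are not given in the sources used here. The labels state reverse stranded libraries, and lncRNA genes on the opposite strand overlap exons of Bdnf, Gfra1, Il6st, Lifr and Ntrk3, so reads from these could be included if strand was not used. The labels and the paper name different total RNA kits. Columns were matched to retinas by the sample labels, with 0 columns unused.

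The analysis used edgeR 4.0.16 (limma 3.58.1, R 4.3.3). The filterByExpr step, by group with a minimum count of 10, left 14992 of 25655 genes. After TMM scaling, Sorbinil was tested against DMSO with edgeR's quasi-likelihood F-test, and p-values were adjusted over all genes tested (Benjamini-Hochberg). The study's own threshold was used for calls. CPM are counts scaled to TMM library sizes, and log2 CPM used a prior count of 2. Single-gene permutation tests were exact, two-sided, on log2 CPM over the 10 groupings, and cannot go below 0.1. Totals of 56096541 to 90288552 counts make counting error small against the spread between retinas, except for genes with few counts. Reads carry no molecular identifiers. No 2 libraries agreed within sampling noise (lowest chi-square per degree of freedom 24.6), so none repeats the counts of another. That value cannot show that the retinas came from different mice. Each retina counts as 1 sample because the study describes the groups by mice.

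The 9 genes and the lists were chosen with earlier results of these data known, and no test over a list was run. Named genes were the 9 genes, every called gene of a pathway list (up to 6 by p-value), the 3 genes of each list with the smallest p-value, and fixed partners of the 9 genes. For the gene with the smallest p-value and that with the widest range, the 3 genes most alike were also named. Some genes that this rule names are not reported here. Positions, exon lengths and GC content came from GENCODE vM39 on GRCm39, in which 23524 symbols and all 9 genes were found, and promoter windows came from RefSeq on GRCm38.p6. Alternatives were other filters, scalings, thresholds and tests (among them DESeq2 1.42.0), a sex term, the replicate number as a block, leaving out each retina, and, added after seeing the data, offsets for GC content and length. The steps were tested on simulated data.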

Additional observations from a re-analysis of the deposited data

How the results depend on the processing

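The 9 genes kept 0 calls at the study's threshold under every filter, scaling, test, threshold, block, sex or GC setting tried. Over the fits without 1 retina, the number called ran from 0 to 4, the number with an unadjusted p-value under 0.05 from 0 to 7, the number with an adjusted p-value under 0.05 from 0 to 6, the number whose groups did not overlap from 1 to 8, and the median log2 fold change from -1 to 0.07. The upper counts and the lowest median came without Sorbinil replicate 3, where the lone Sorbinil retina is assumed to vary like the others, and there Ntrk2, Cntf, Cntfr and Gfra1 were called lower. In that fit 19.0% of all genes tested were called, 48.7% had an unadjusted p-value under 0.05 and 36.5% an adjusted one, and 85.1% had groups that did not overlap. The median of 0.07 came without Sorbinil replicate 1. The unadjusted p-value of Lifr passed 0.05 with library size scaling, the likelihood ratio test and the DESeq2 Wald test, giving 1 gene in each. By edgeR's quasi-likelihood test it was 0.0791 with a sex term and 0.225 with the replicate number as a block. With GC and length offsets it was 0.145 by the same test, at a log2 fold change of 0.47. The median log2 fold change was -0.51 with a sex term.

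The replicate numbers were shared by 2 retinas of each group only, and the retinas were not treated as paired. The correlations of same-numbered deviations from the group means were -0.243 and -0.125. With 2 Sorbinil retinas the deviations of that group mirror each other, so these correlations cannot decide whether the numbers mark pairs. With the replicate number as a block, 0 of the 9 genes were called, the median log2 fold change was -0.45, and 0 genes of the STAT3 and reactive Müller response and 0 other survival factors were called.

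Pathway counts over the fits without 1 retina ran from 0 to 10 for neurotrophin genes, 0 to 2 for gp130 cytokine genes, 0 to 6 for STAT3 and reactive Müller response genes, 0 to 8 for the IGF axis, 0 to 3 for the GDNF family and 0 to 19 for other survival factors, each upper end without Sorbinil replicate 3, where 19.0% of all genes were called, compared to 1.1% to 1.99% without any other retina. For neurotrophin genes the count was 0 with a sex term, with GC and length offsets, and with the p-value limit at 0.05. For gp130 cytokine genes it was 1 with no filter and 1 at 1.5-fold. For the STAT3 and reactive Müller response it was 2 with library size scaling, the DESeq2 Wald test, a sex term or 1.5-fold. For the IGF axis it was 0 with the p-value limit at 0.05. For other survival factors it was 0 with at least 10 counts in every retina, DESeq2 size factors, upper-quartile or library size scaling, the DESeq2 Wald test, a sex term, or the p-value limit at 0.05. Library size scaling moved the median of all genes to -0.11, and changes under that scaling are relative to it.

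Directions turned mainly with the Sorbinil retina left out. Over the fits without 1 retina, the log2 fold change ran from -1.28 to 0.25 for Ntrk2, -0.2 to 0.32 for Ntrk3, -0.04 to 0.06 for Il6st, -1 to 0.36 for Igf1, -1.59 to 0.07 for Gfra1, -0.05 to 0.72 for Fgf2, -1.2 to 0.05 for Gfra4, -0.43 to 0.64 for Lif, -0.8 to 0.03 for Osmr, -0.08 to 0.04 for Stat3, -0.02 to 0.43 for Socs3, -1.42 to 0.04 for Igfbp2, -1.94 to 0.32 for Igfbp5 and -0.72 to 0.49 for Gdnf. For all of these but Il6st, at least 1 end of the range came without Sorbinil replicate 1 or 3. With GC and length offsets it was -0.25 for Ntrk3, -0.03 for Il6st and 0.11 for Stat3, with library size scaling -0.08 for Il6st and -0.03 for Gdnf, and with a sex term -0.01 for Gdnf. The cause of these changes was not tested. With 3 and 2 retinas, the 95% intervals of 6 of the 9 genes reach a 2-fold decrease, so a decrease of that size lies within their error. The interval of Lifr (-0.03 to 1.14) reaches a 2-fold increase.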

Other observations

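Genes of tissues beside the retina were not evenly spread over the libraries. The lens gene Cryaa, which encodes an alpha crystallin, was at 0.165, 0.200 and 27.3 CPM in DMSO replicates 1, 2 and 3, and at 0.913 and 16.8 CPM in Sorbinil replicates 1 and 3. The list of 8 lens genes summed to 48.3 CPM in DMSO replicate 3 and 31.6 CPM in Sorbinil replicate 3, and to between 1.03 and 2.53 CPM in the other 3 retinas. The list of 10 pigment epithelium genes had its highest median in DMSO replicate 3, at a log2 difference of 0.90 from the DMSO mean, compared to -0.82 in Sorbinil replicate 1. Mitochondrially encoded genes took 3.70% and 4.05% of the counts in Sorbinil replicates 1 and 3, and between 1.94% and 2.66% in the DMSO retinas.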
